A study of Rattus norvegicus with 2 samples.

Results

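A stretch of rat chromosome 1, from the gene Il4r to the gene Cdca5, was examined in cultured myometrial progenitor cells, precursors of the uterine smooth muscle. The deposited result table lists genes in genome order. All 381 rows from Il4r to Cdca5 were taken, and the 273 rows whose mean reached 20 normalised reads are the members, out of 11212 such genes in the whole table. Of the other rows, 59 are listed at 0 and 49 had a lower mean above 0. The stretch was chosen because its ratios between the samples stood together, so every difference along it is given as a description and no test was run.

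Total RNA was sequenced from 1 sample of DES-exposed cells and 1 sample of VEH-exposed cells (n = 1 each). Cells of 5 animals were pooled for each sample, at passages 1 to 3, and the labels name the rat as the species, while the series' design text calls the cells murine. Strain, dose and age at exposure were not stated in the sources used here. The study compared gene expression in exposed and unexposed cells.

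The table does not say which sample is on top of its fold change. The reads of each library were recovered from the deposited means. The library on top of the fold change is called the numerator library and the other the denominator library, and since neither could be assigned to DES, the directions below say nothing about its effect. Listed genes held 106599579 reads in the numerator and 104793348 in the denominator library. A ratio is the log2 of normalised reads in the numerator over the denominator library with 1 added to each, and numerator and denominator reads are those of the named library, so a negative value means fewer reads in the numerator library. Because 1 pooled library stands for each group, no difference has a replicate check, and fewer cells of a type cannot be told apart from less RNA per cell. Intervals are 95% and cover counting error only. Where a library had 0 reads, a fold given as "at least" sets the other library's reads against a floor of 3 reads. It leaves out the counting error of that other library. The 95% counting limit is nearer to equality, for Hmx2 192-fold against 237-fold by the floor.

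The labelled cell type was checked against marker genes. All 10 smooth muscle markers and all 7 mesenchymal markers had a mean of at least 20, with summed reads of 2075380 and 795432 in the numerator library and 1254922 and 1366263 in the denominator library. Of 5 endothelial markers 4 were above 0, with 600 summed reads in the numerator and 2530 in the denominator library, and Kdr was at 0 or not listed. Of 5 epithelial markers 4 were above 0 (3037 numerator and 1554 denominator reads), without Cdh1. Of 6 leukocyte markers 4 were above 0 (294 numerator and 339 denominator reads), without Ptprc and Cd3e. Of 3 erythroid markers 2 were above 0 (137 numerator and 0 denominator reads), without Hbb. A mean of at least 20 was reached by 4 endothelial, 3 epithelial, 2 leukocyte and 2 erythroid markers. Single markers made up most of these sums. The largest held 553 numerator and 2166 denominator reads for endothelial, 2473 and 1431 for epithelial, and 271 and 270 for leukocyte markers. The part of endothelial, epithelial, leukocyte and erythroid cells in the ratios below was not tested, nor was that of the difference in smooth muscle and mesenchymal markers.

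Genes that lie side by side on a chromosome are mostly transcribed from promoters of their own, though neighbours can share enhancers or a chromatin domain. The stretch from Il4r to Cdca5 is gene-dense. It holds the imprinted H19, Igf2 and Kcnq1 domains, in which some genes are transcribed from the maternal or the paternal copy only. The cyclin D1 gene with its FGF neighbours, the proliferation marker gene Mki67 and many genes needed in every cell also lie there. Among its members, 268 were matched to RefSeq's GRCr8 assembly, all on chromosome 1 and between Il4r and Cdca5 there. Of 267 steps from 1 matched member to the next, 4 ran against the order of GRCr8.

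The bases before the start of 6 members are shown because these genes stand at different ends of the ratios described below. Hmx3, Hmx2 and Bub3 are neighbours of which the first pair had no reads in the numerator library, Mgmt and Tmem151a had more reads there, and Cdca5 closes the stretch. Each sequence is the 250 bases before the gene's start in RefSeq's GRCr8 assembly, 5′ to 3′ on the gene's strand, with matches to the motifs below in capitals.
Hmx3 (chr1:195743161-195743410, + strand): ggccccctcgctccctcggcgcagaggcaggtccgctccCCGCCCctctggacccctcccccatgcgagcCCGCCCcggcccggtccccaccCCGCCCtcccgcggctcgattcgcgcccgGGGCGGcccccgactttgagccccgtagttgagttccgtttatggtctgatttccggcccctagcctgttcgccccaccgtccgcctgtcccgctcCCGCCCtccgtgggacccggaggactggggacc
Hmx2 (chr1:195749034-195749283, + strand): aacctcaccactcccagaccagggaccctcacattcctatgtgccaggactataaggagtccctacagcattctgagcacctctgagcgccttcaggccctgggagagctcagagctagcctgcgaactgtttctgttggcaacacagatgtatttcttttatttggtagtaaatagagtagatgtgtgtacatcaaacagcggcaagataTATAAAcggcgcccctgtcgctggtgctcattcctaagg
Bub3 (chr1:195760282-195760531, + strand): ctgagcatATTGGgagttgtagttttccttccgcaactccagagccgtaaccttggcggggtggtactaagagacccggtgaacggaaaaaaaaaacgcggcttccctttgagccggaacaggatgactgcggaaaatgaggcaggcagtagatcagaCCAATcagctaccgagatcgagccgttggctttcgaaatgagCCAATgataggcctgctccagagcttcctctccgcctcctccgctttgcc
Mgmt (chr1:201140582-201140831, + strand): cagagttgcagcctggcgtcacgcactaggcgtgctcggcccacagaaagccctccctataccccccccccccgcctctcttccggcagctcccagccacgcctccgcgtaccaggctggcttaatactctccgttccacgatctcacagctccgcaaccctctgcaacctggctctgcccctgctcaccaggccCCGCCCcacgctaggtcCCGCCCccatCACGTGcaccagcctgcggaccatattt
Tmem151a (chr1:211821559-211821808, - strand): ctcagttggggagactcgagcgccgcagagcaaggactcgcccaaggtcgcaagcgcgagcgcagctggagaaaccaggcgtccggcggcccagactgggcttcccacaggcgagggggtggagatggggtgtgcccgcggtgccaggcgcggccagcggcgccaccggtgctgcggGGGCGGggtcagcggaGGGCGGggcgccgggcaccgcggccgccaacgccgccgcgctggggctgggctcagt
Cdca5 (chr1:212807613-212807862, + strand): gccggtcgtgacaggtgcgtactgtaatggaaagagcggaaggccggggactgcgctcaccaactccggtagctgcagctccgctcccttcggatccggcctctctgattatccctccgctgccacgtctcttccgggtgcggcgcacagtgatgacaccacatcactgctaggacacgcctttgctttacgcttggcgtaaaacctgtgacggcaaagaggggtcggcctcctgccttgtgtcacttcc

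The motifs searched on both strands were the TATA box (TATAAA), the CCAAT box (CCAAT), the GC box (GGGCGG), the E-box (CACGTG) and the estrogen response element (GGTCA and TGACC with any 3 bases between them). In these 250 bases Hmx3 held 5 GC boxes, Hmx2 1 TATA box, Bub3 3 CCAAT boxes, Mgmt 2 GC boxes and 1 E-box, Tmem151a 2 GC boxes and Cdca5 none of the motifs. RefSeq gives 300-base windows, which run on to 50 bases after the start, for 229 members and 27457 genes in all. In these windows a GC box was found for 62.0% of the members and for 34.9% of all genes, a TATA box for 4.80% and 14.3%, a CCAAT box for 38.0% and 37.7%, and an E-box for 6.55% and 6.65%. No member's window held the estrogen response element, which 7 of all windows held. These shares are of letters in a window and not of bound sites, and all genes include many that are not above the minimum here.

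Along the stretch, ratios lay below those of the rows on either side. The median ratio of the 273 members was -0.63 (quartiles -1.08 to -0.16), which is 1.55-fold fewer reads in the numerator library. The 50 rows with the same minimum just before Il4r had a median of -0.08 and the 50 rows just after Cdca5 one of 0.10. Both sides together had a median of 0.02, so the members' median was lower by 0.65 (difference -0.65). Over the 10939 genes outside the stretch the median was 0.02. The members' spread was like that of the rows around them, with a distance between the quartiles of 0.92, against 0.94 for the 50 rows on each side.

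**Figure D1:**
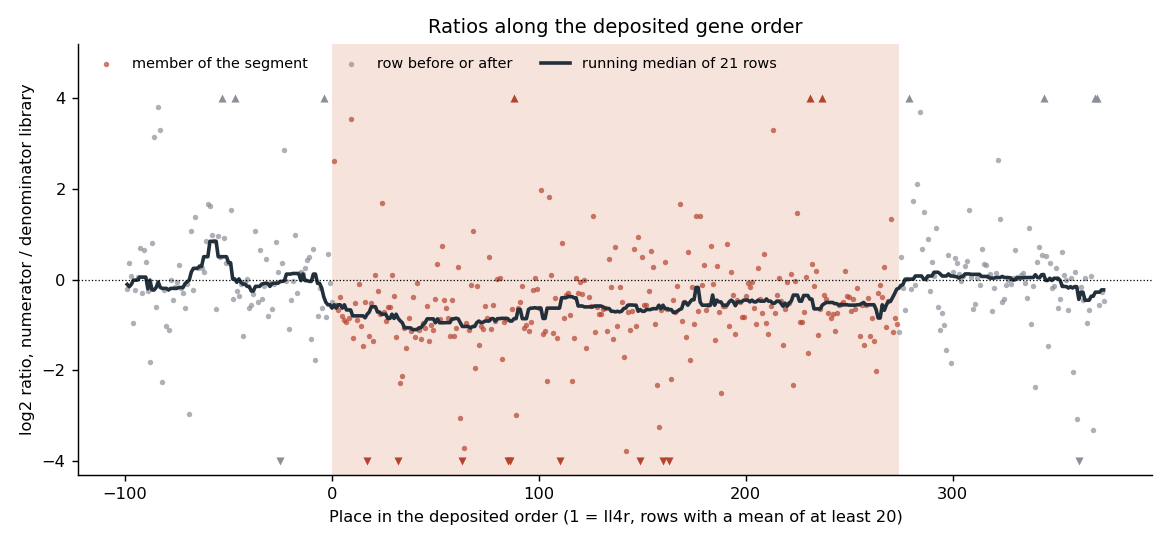
Log2 ratio of each row (y axis, numerator over denominator library, values beyond 4 drawn as triangles) against its place in the deposited order (x axis), for the 273 members (red, shaded) and 100 rows on each side (grey). The line is the running median of 21 rows, which stays below 0 across the shaded stretch.

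Most members shared the direction. Of 273 members, 222 had a ratio below 0, or 81.3%, where 49.6% of all genes did. Between 0 and -1 lay 143 members, or 52.4%, where 36.9% of all genes did. In the numerator library 79 members (28.9%) were lower by at least 2-fold with a counting interval that left out equality, against 12.7% of all genes. At least 2-fold higher were 16 members (5.86%), against 13.9% of all genes. With a 4-fold limit 23 members were lower, against 5.11% of all genes, and 6 were higher, against 7.47% of all genes. With a 1.5-fold limit 143 were lower, against 22.8%, and 24 higher, against 22.6%. The stretch was chosen from this same comparison, so nothing is read from these shares. Summed over members, the numerator library held 2190189 reads and the denominator library 2839100, a normalised ratio of 0.758.

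**Figure D2:**
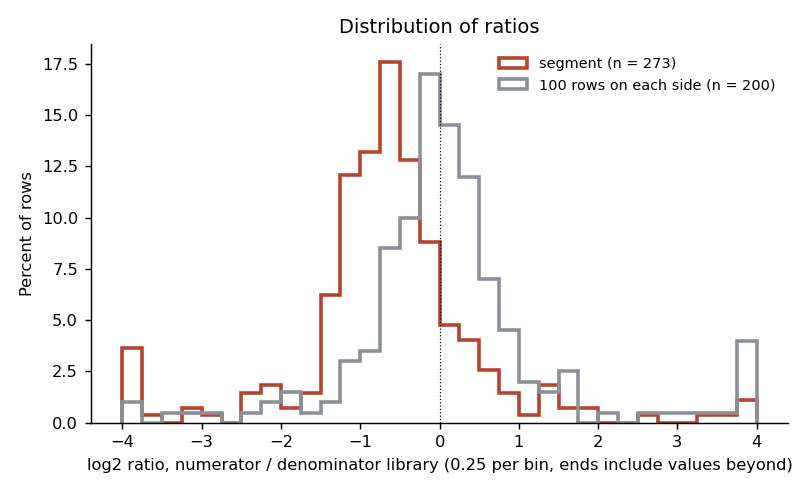
Percent of rows (y axis) by log2 ratio in bins of 0.25 (x axis), for the 273 members (red) and the 200 rows around them (grey, 100 on each side); end bins include values beyond the axis. The members' curve is moved to the left as a whole, with a median of -0.63 against 0.02.

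The lower ratios were not confined to rarely or often sequenced genes. The 31 members with a mean under 200 had a median of -0.56, the 85 with a mean of 200 to 2000 one of -0.73, the 103 with a mean of 2000 to 10000 one of -0.64 and the 54 with a larger mean one of -0.56. Outside the stretch the medians of the same classes were 0.34, -0.11, 0.02 and 0.15. Spread was widest in the lowest class, where the quartiles lay at -1.46 and 0.91, and narrowest for means of 2000 to 10000, at -0.93 and -0.35, where 91 of 103 members were below 0. Base composition near gene starts was alike: the median GC content of the promoter windows was 60.7% for 229 members and 61.0% for 8802 genes outside. The 3549 genes outside with a GC content within the members' quartiles had a median ratio of 0.04. Members with a GC content below their own median had a median ratio of -0.64, and the others -0.62.

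Taken in order in blocks of 25, each block of members had a negative median. The block from Hirip3 to Fbxl19 had the lowest median, -1.06, with 24 of 25 members below 0 and 13 at least 2-fold lower (12.7% of all genes were). The neighbouring blocks had medians of -0.71 (Il4r to Ino80e) and -0.86 (Orai3 to Fgfr2). The block from LOC100302465 to Ifitm3 had the median nearest to 0, -0.40, and the block from Rps6kb2 to Npas4 had -0.42. The remaining blocks lay between -0.49 and -0.69, the closing block from Rela to Cdca5 at -0.65. Running medians of 21 consecutive members were below 0 in 253 of 253 windows, from -1.10 around Mylpf to -0.17 around Ano1. Of 180 windows without a member in the 100 rows on each side, 82 were below 0, and their range was -0.45 to 0.85. The longest run of consecutive members below 0 held 21 genes, from Mvp to Fbxl19, and the next held 18, from Ap5b1 to Syvn1.

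**Figure D3:**
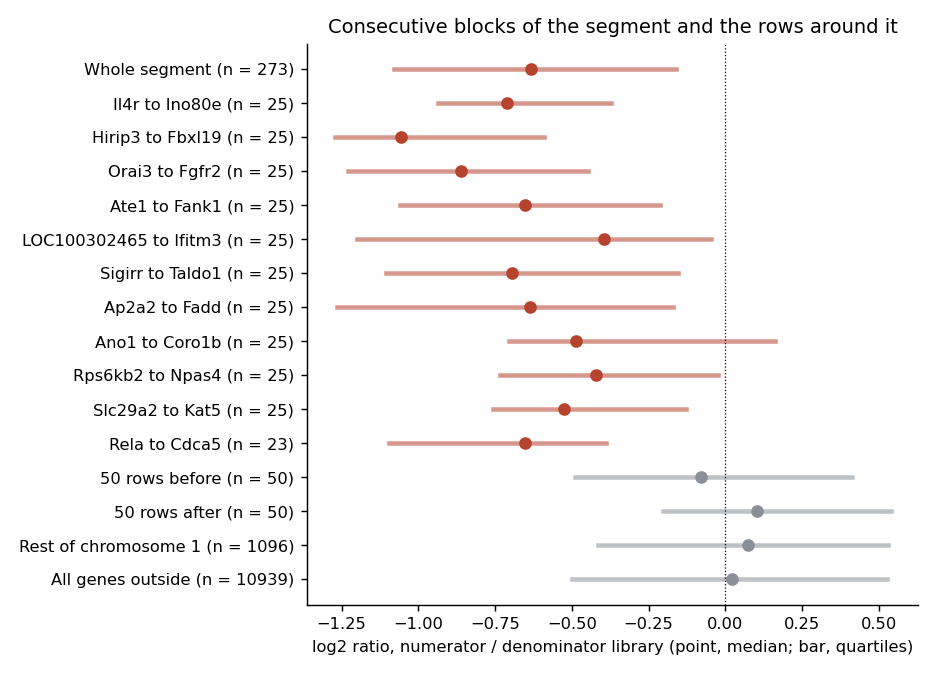
Median log2 ratio (point) and quartiles (bar) on the x axis for the whole stretch and its 11 consecutive blocks of members (red), above the rows before and after it, the rest of chromosome 1 and all genes outside (grey). Each red median is left of 0, and the grey medians lie between -0.08 and 0.10.

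At both ends of the stretch, single rows differed in direction. Il4r, the receptor chain for interleukin-4 at its first row, went the other way, with 18892 reads in the numerator and 3022 in the denominator library (6.14-fold higher, interval 5.91 to 6.38). The next 7 members, from Gtf3c1 to Rabep2, had ratios between -0.37 and -0.94. Outside Il4r, Nsmce1 had 2632 numerator and 3640 denominator reads (ratio -0.49), Kdm8 had 576 numerator and 597 denominator reads (-0.08) and Snurf had 43 numerator and 28 denominator reads (0.58). At the other end Cdca5, encoding sororin, which holds sister chromatids together, had 30 numerator and 59 denominator reads (ratio -0.98, interval 1.27-fold to 3.22-fold lower). Beyond it Snx15 had 616 numerator and 1353 denominator reads (-1.16), Arl2 had 2289 numerator and 1597 denominator reads (0.49) and Ppp2r5b had 1954 numerator and 2185 denominator reads (-0.19). The row at which the lower ratios begin or end cannot be fixed to 1 gene from these values.

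The reference assembly places 2 further genes between Il4r and Cdca5 that the deposited table lists elsewhere, so they are not members. Nupr1 stands among the 50 rows before Il4r, and with the next row outward in its place the members' median differed from the rows around them by -0.66. Echs1, a mitochondrial enzyme of fatty acid oxidation, had 5928 reads in the numerator and 12084 in the denominator library, and was 2.08-fold lower (interval 2.01 to 2.14). Nupr1, a stress-induced nuclear protein, had 17663 numerator and 30688 denominator reads (1.77-fold lower, interval 1.74 to 1.80). Both ratios, -1.05 and -0.82, lay between the members' 10th percentile of -1.59 and 90th percentile of 0.49, on the lower side of their median.

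By RefSeq's GRCr8 assembly, 1096 genes on the rest of chromosome 1 had a median of 0.07. The medians of 18 chromosomes other than 1, 4 and 7 ranged from -0.06 on chromosome 20 to 0.26 on chromosome 13. Chromosomes 4 and 7 had medians of -0.38 (618 genes) and -0.57 (731 genes), so a stretch with a negative median was not particular to chromosome 1.

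Some members had far lower ratios than their neighbours. Hmx2 and Hmx3 are adjacent homeobox transcription factor genes of the developing inner ear and nervous system. Hmx2 had 0 reads in the numerator and 698 in the denominator library (at least 237-fold lower). Hmx3 had 0 numerator and 48 denominator reads (at least 16.3-fold lower). Bub3, the spindle checkpoint gene listed after them, had 4049 numerator and 6256 denominator reads (1.57-fold lower, interval 1.51 to 1.64), a ratio of -0.65 close to the median of all members. The promoter sequences of these 3 genes are those printed above. Stk32c, a protein kinase gene, had 22 numerator and 720 denominator reads (33.3-fold lower, interval 21.8 to 53.5). Eps8l2, an actin-binding protein, had 53 numerator and 1559 denominator reads (30.0-fold lower, interval 22.8 to 40.2). Both stood below each of their nearest neighbours.

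Other members at the low end were rarely sequenced in the numerator library. Itgad, an integrin chain of leukocytes with close relatives beside it, had 0 numerator and 61 denominator reads (at least 20.7-fold lower), and may share reads with them. Sult1a1, a phenol sulfotransferase, had 9 numerator and 260 denominator reads (29.4-fold lower, interval 15.3 to 65.1). Prrt2, a presynaptic protein, had 16 numerator and 294 denominator reads (18.7-fold lower, interval 11.3 to 33.2). Each of these rests on a low count in 1 library. Lmntd2 had 3 numerator and 53 denominator reads (18.0-fold lower, interval 5.83 to 90.0).

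Members with the opposite direction were few, and some were far from 0. Cst6, cystatin M, an inhibitor of lysosomal cysteine proteases, had 5647 reads in the numerator and 9 in the denominator library (616-fold higher, interval 324 to 1348). Tmem151a, a membrane protein, had 3785 numerator and 39 denominator reads (95.3-fold higher, interval 69.6 to 134). Cst6 and Tmem151a lie 6 members apart, with Yif1a, Cnih2, Rab1b, Pacs1 and Sf3b2 between them at ratios of 0.36, -0.13, 0.19, -1.21 and -0.64. Thus the high values did not extend to the genes between them. Cpxm2, a carboxypeptidase-like protein, had 44 numerator and 0 denominator reads (at least 14.4-fold higher). Its mean of 21.8 is just above the minimum of 20.

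Further members in this direction had smaller ratios. Atp2a1, the calcium pump of fast skeletal muscle, had 58 numerator and 4 denominator reads (14.2-fold higher, interval 5.27 to 54.0). Mgmt, which removes methyl groups from guanine in DNA, had 5252 numerator and 1464 denominator reads (3.52-fold higher, interval 3.32 to 3.74). Mgmt and its neighbour Mki67 therefore stood on opposite sides of 0. Tnfrsf26, of the tumour necrosis factor receptor family, had 2784 numerator and 853 denominator reads (3.21-fold higher, interval 2.97 to 3.46). Fam57b had 178 numerator and 53 denominator reads (3.30-fold higher) and LOC100302465 had 88 numerator and 21 denominator reads (4.12-fold higher).

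**Figure D4:**
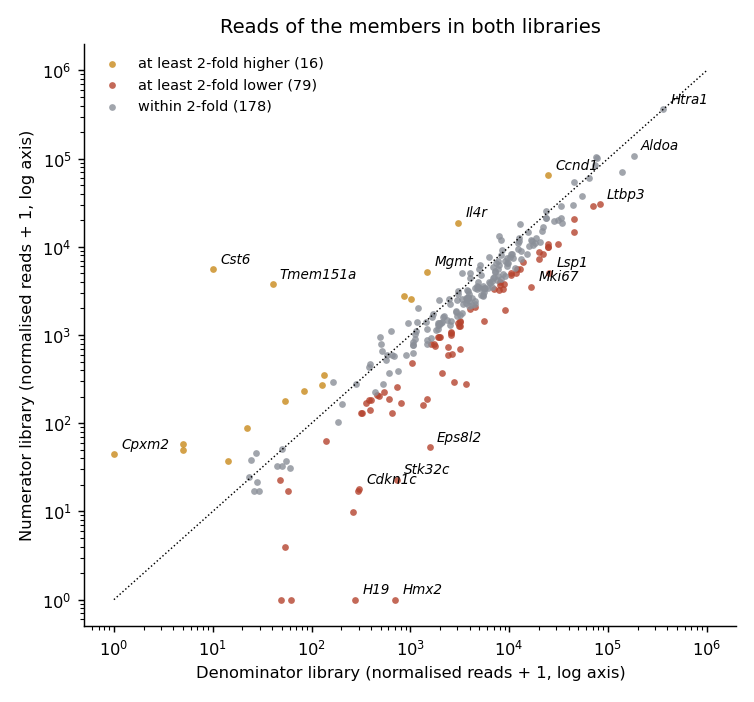
Normalised reads plus 1 of each member in the numerator library (y axis, log) against the denominator library (x axis, log), with 16 members at least 2-fold higher (ochre), 79 at least 2-fold lower (red) and 178 within 2-fold (grey). The cloud of members lies below the dotted line of equality, and Cst6 and Tmem151a stand farthest above it.

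The members with the most reads did not all follow the rest. Htra1, a secreted serine protease that acts on matrix proteins and TGF-beta signalling, had 369303 reads in the numerator and 357975 in the denominator library (ratio 0.02). Aldoa, a glycolytic enzyme, had 108930 numerator and 181089 denominator reads (1.69-fold lower). Ctsd, a lysosomal protease, had 70742 numerator and 137164 denominator reads (1.97-fold lower). The tetraspanin genes Cd151 and Cd81 encode proteins that organise receptors in the membrane. Cd151 had 105091 numerator and 74582 denominator reads (ratio 0.47) and Cd81 had 102114 numerator and 76017 denominator reads (ratio 0.40). Among these 5 members, 2 were thus on the lower side and 3 at or above equality.

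The members were also grouped into 11 lists by function or place, which hold selected genes and not every member of an interval. Of all genes 12.7% were at least 2-fold lower and 13.9% at least 2-fold higher. In the lists the lower share ran from 14.3% of the mitochondrial genes to 37.5% of the interleukin receptor and leukocyte genes, and the higher share from 0% to 12.5%. As the stretch was chosen from this comparison, nothing is read from these shares.

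The list of interleukin receptor and leukocyte genes had 16 members, of which 6 were at least 2-fold lower and 1, Il4r, higher (median -0.74). It leaves out Pycard (ratio -3.05) and Sigirr, of the interleukin-1 receptor family, which is listed around Hras. Sigirr had 37 numerator and 13 denominator reads (ratio 1.42, called higher). The list also holds genes not confined to leukocytes, such as Cd151 and Cd81, so these counts are not of the whole class. Lsp1, an actin-binding protein of leukocytes, had 5127 reads in the numerator and 25270 in the denominator library, and was 5.02-fold lower (interval 4.87 to 5.17). The interferon-induced membrane protein genes Ifitm1, Ifitm2 and Ifitm3 had ratios of -0.37, -1.51 and -0.58, and as near-identical relatives they may share reads. Leukocyte markers summed to 294 numerator and 339 denominator reads, and the part of leukocytes in these ratios was not tested.

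Around Mapk3 and Aldoa, 28 listed members had a median of -0.80, with 10 at least 2-fold lower (35.7%) and 2 higher (7.14%). Mapk3, the kinase ERK1, had 15176 numerator and 21156 denominator reads (ratio -0.51). Maz, a zinc finger transcription factor, had 1918 numerator and 9089 denominator reads (-2.27), and Sh2b1, an adaptor of receptor kinases, had 3251 numerator and 7729 denominator reads (-1.28). Beside them, 16 listed members around Kat8 had a median of -0.74, with 5 at least 2-fold lower and 0 higher. Zfp629 had 1012 numerator and 2552 denominator reads (2.57-fold lower, interval 2.39 to 2.76). Kat8, a histone acetyltransferase, had 1096 numerator and 2544 denominator reads (2.36-fold lower, interval 2.20 to 2.54), and Vkorc1, the warfarin-sensitive vitamin K reductase, had 5590 numerator and 12873 denominator reads (2.34-fold lower, interval 2.27 to 2.42).

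From Fgfr2 to Sprn, which lies beyond Ebf3, 36 listed members had a median of -0.64, with 12 at least 2-fold lower and 2 higher. Fgfr2, a fibroblast growth factor receptor, had 4257 reads in the numerator and 7536 in the denominator library, and was 1.80-fold lower (interval 1.74 to 1.87). Chst15, a chondroitin sulfotransferase, had 189 numerator and 1471 denominator reads (7.92-fold lower, interval 6.81 to 9.27). Ebf3, a transcription factor, had 30 numerator and 0 denominator reads and did not reach the minimum. Around Hras, 29 listed members had a median of -0.60, with 7 at least 2-fold lower and 1 higher. Hras, a small GTPase, had 2666 numerator and 3697 denominator reads (ratio -0.50). Lrrc56 had 190 numerator and 605 denominator reads (3.24-fold lower, interval 2.75 to 3.84). Tnnt3, the fast skeletal troponin T, had 293 numerator and 2727 denominator reads (9.48-fold lower, interval 8.40 to 10.7), opposite to the skeletal calcium pump Atp2a1.

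In and beside the imprinted domains, 11 listed members had a median of -0.64, with 3 at least 2-fold lower and 0 higher. Tnfrsf26, which lies between the listed Cars and Nadsyn1, is left out of the list and was higher (ratio 1.68). H19, a long noncoding RNA transcribed from the maternal copy, had 0 reads in the numerator and 275 in the denominator library (at least 93.3-fold lower). Cdkn1c, the maternally expressed cell cycle inhibitor p57, had 17 numerator and 299 denominator reads (17.9-fold lower, interval 11.0 to 31.2). Slc22a18, a transporter gene of the same domain, had 706 numerator and 3186 denominator reads (4.59-fold lower, interval 4.23 to 4.99). After the values were seen, these 3 lowest members were noted as genes known in mouse as expressed from the maternal copy. Phlda2, another such gene, had 32 numerator and 43 denominator reads (ratio -0.44). The remaining listed members had ratios from -0.90 (Nadsyn1) to 0.60 (Dhcr7). Expression by parental copy was not measured here. The list was not divided by parental copy, so no parental pattern is read from these ratios. Igf2, the growth factor gene expressed from the paternal copy, had 19 numerator and 0 denominator reads and did not reach the minimum.

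Around cyclin D1 the ratios were nearer to 0. The 16 listed members there had a median of -0.36, with 3 at least 2-fold lower and 2 higher. Ccnd1, cyclin D1, which drives cells into the cycle, had 65285 reads in the numerator and 24352 in the denominator library (2.63-fold higher, interval 2.59 to 2.67). Ano1, a calcium-activated chloride channel of smooth muscle and pacemaker cells, had 359 numerator and 133 denominator reads (2.65-fold higher, interval 2.17 to 3.26). Only 1 member lies between these genes. Shank2, a scaffold protein, had 16 numerator and 56 denominator reads (3.56-fold lower, interval 2.02 to 6.66). Chka, choline kinase, had 376 numerator and 2086 denominator reads (5.65-fold lower, interval 5.06 to 6.32). Lrp5, a Wnt coreceptor, had 9928 numerator and 24532 denominator reads (ratio -1.33).

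The listed cell cycle and replication genes of the stretch divided by size of difference. Their 16 members had a median of -0.58, with 5 at least 2-fold lower and 2, Ccnd1 and the DNA repair gene Mgmt, higher. The list does not hold every such gene of the stretch. It leaves out Mcmbp (ratio -1.08, called lower) and Pold4 (-0.61). Mki67, the antigen of proliferating cells, had 3553 reads in the numerator and 16504 in the denominator library, and was 4.73-fold lower (interval 4.56 to 4.91). Kif22, a chromosome-binding kinesin, had 612 numerator and 2626 denominator reads (4.37-fold lower, interval 4.0 to 4.78). Pola2, a subunit of DNA polymerase alpha, had 604 numerator and 2398 denominator reads (4.04-fold lower, interval 3.70 to 4.43). The other lower members were the cell cycle inhibitor gene Cdkn1c, the lowest of the list (ratio -4.08), and Nsmce4a (-1.09). Cdkn1c, Kif22, Mki67 and Pola2 lay well below the median of the stretch, while Bub3 and the nuclease gene Mus81 (ratio -0.50) lay near it.

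The listed mitochondrial genes were among the most even, but the list does not hold every mitochondrial gene of the stretch. Of 14 listed members 12 were below 0, with a median of -0.57, quartiles of -0.72 and -0.36, 2 at least 2-fold lower and 0 higher. Cox6a2, a respiratory chain subunit gene left out of the list, had 282 numerator and 3639 denominator reads (13.1-fold lower, interval 11.6 to 14.9). Pc and mrpl11, also left out, had ratios of -0.95 and -0.03. Bnip3, a hypoxia-induced mitophagy receptor, had 29122 reads in the numerator and 69257 in the denominator library, and was 2.42-fold lower (interval 2.39 to 2.46). Slc25a45, a mitochondrial carrier, had 229 numerator and 532 denominator reads (2.37-fold lower, interval 2.02 to 2.77). Acadsb, which oxidises branched-chain acyl groups, had 2174 numerator and 3868 denominator reads (1.81-fold lower, interval 1.72 to 1.91). Complex I subunit genes Ndufs8 and Ndufv1 had ratios of -0.59 and -0.34.

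The list of actin, adhesion and matrix genes had a wider range, with 6 of 19 members at least 2-fold lower and 1 higher (median -0.53). It also holds Kdm2a and Fibp, which are not of these classes (ratios -0.74 and -0.73). It leaves out the actin-binding Eps8l2 and Lsp1 described above, so these counts are of the list and not of the whole class. Ltbp3, which binds latent TGF-beta in the matrix, had 30533 reads in the numerator and 81690 in the denominator library, and was 2.72-fold lower (interval 2.69 to 2.76). Cd248, a surface protein of mesenchymal cells and pericytes, had 14930 numerator and 44625 denominator reads (3.04-fold lower, interval 2.99 to 3.10). Cfl1, the actin-severing protein cofilin, had 85904 numerator and 73657 denominator reads (ratio 0.20) and Cttn, cortactin, had 54811 numerator and 44481 denominator reads (ratio 0.28). Both cytoskeletal genes thus had somewhat more reads in the numerator library, and 6 of the 19 listed members had a ratio above 0. The other 13 were below 0, among them the actin regulators Coro1b (ratio -0.36) and Ssh3 (-0.98).

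Around Rela, 23 listed members had a median of -0.55, with 21 below 0, 4 at least 2-fold lower and 2 higher. Rela, the p65 subunit of NF-kappaB, had 6045 reads in the numerator and 9500 in the denominator library, and was 1.60-fold lower (interval 1.55 to 1.65). Fosl1, the AP-1 subunit Fra-1, had 2090 numerator and 4468 denominator reads (2.18-fold lower, interval 2.07 to 2.29). Pacs1, a sorting protein, had 5067 numerator and 11517 denominator reads (2.31-fold lower, interval 2.24 to 2.39). Cst6 and Npas4 were the 2 higher members. Npas4, a neuronal activity-induced transcription factor, had 233 numerator and 82 denominator reads (2.79-fold higher, interval 2.16 to 3.63). Fau, which encodes a ribosomal fusion protein and has processed copies elsewhere, had 6811 numerator and 13711 denominator reads (ratio -1.04), and its value is uncertain.

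**Figure D5:**
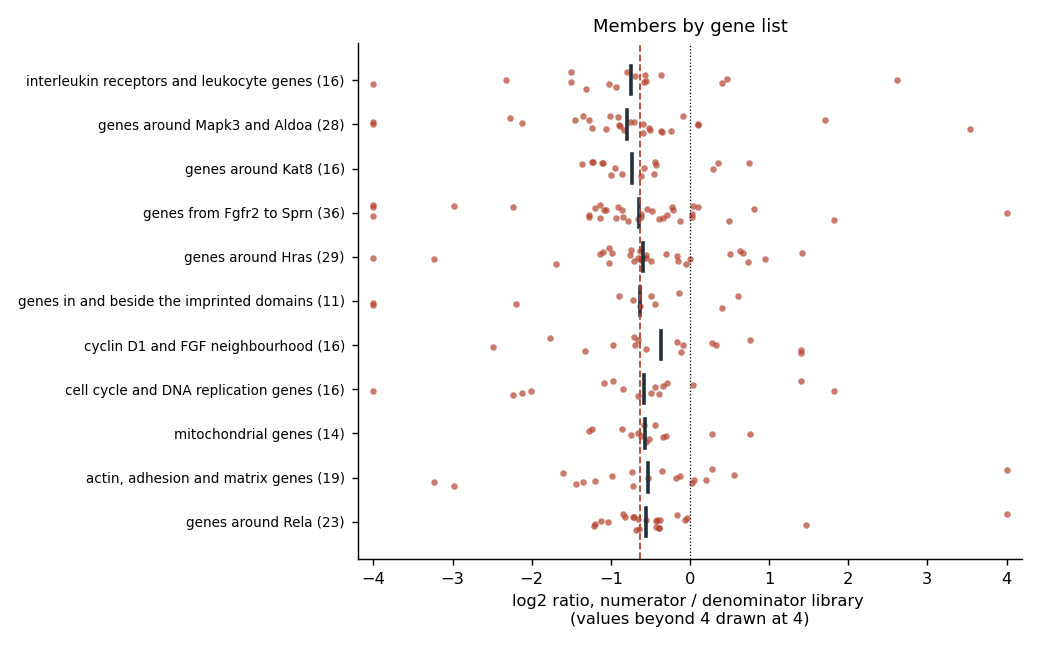
Log2 ratio of each member (points, x axis, values beyond 4 drawn at 4) by gene list (rows, number of members in brackets), with the list's median as a dark bar and the median of all 273 members, -0.63, as a dashed line. List medians lie between -0.80 and -0.36, and each list but those around Kat8, the imprinted domains and the mitochondrial genes has a member at least 2-fold higher.

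The 197 members in these lists had a median of -0.62 and the 76 members in none of them -0.65, so the centre of the listed members was close to that of the others. The minimum of 20 divides members of like size from rows left out. Just above it, Actn3 had 16 numerator and 25 denominator reads, Cpxm2 had 44 numerator and 0 denominator reads and Lat had 16 numerator and 28 denominator reads. Just below it, Doc2g had 6 numerator and 32 denominator reads, Tbc1d10c had 12 numerator and 25 denominator reads and Coro1a had 27 numerator and 9 denominator reads. In the authors' deposited table, a fold change below 0 stands for 222 members, the median of their shrunken log2 fold changes is -0.55, and 7 members have an unadjusted p under 0.05, against 427 of all 11212 genes. The lowest adjusted p in the authors' deposited table is 0.999 over all genes.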

How the data were processed

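The submitters' processing notes name DESeq2, featureCounts, TopHat, SAMtools and FastQC, and as builds rn5 and rn4. Their versions, roles, settings and use of strand were not stated in the sources used here, so overlapping genes cannot be told apart. Per the labels' protocols, single reads of 36 bp came from PCR-enriched libraries of DNase-treated total RNA. The authors' deposited table has 17327 rows, 4106 of them at 0. Its mean is a linear signal, read counts over size factors averaged over the libraries (per the file headers). The authors' deposited fold change and standard error are on a log2 scale, the statistic is a score, and the p-values are the authors' own.

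Reads were recovered with Python 3.11.15 from the means, each the sum of whole multiples of 2 steps (size factors 1.01 and 0.991). For 164 members only 1 pair of read numbers met the mean. For 108 a shrunken negative binomial model was fitted to each possible pair, and the one giving the deposited standard error was kept, and for 1 the pair nearest to the deposited fold change, so the sign is no independent check there. The recovery was tested on simulated data, drawn from the same model that it assumes, so a misfit of that model to the deposited values would not show there. A call needed a 2-fold ratio (pseudocount 1), a mean of at least 20 and a 95% Clopper-Pearson counting interval excluding equality. PCR reads are not independent molecules. The spread between cultures is unknown, so no p-value was computed.

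Members and lists were chosen with earlier results of these data known. Genes were named as the first and last row, the 10 highest and 10 lowest ratios, the 5 with most reads, the 3 largest ratios of each of 11 lists, and the 3 rows on each side. Some items that the rule or the lists hold are not reported here. Other genes were named after their values were seen. RefSeq's GRCr8 tables served for neighbours and sequences.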

Additional observations from a re-analysis of the deposited data

How the results depend on the processing

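Of 42 recomputed values, 36 stayed within their limits. Counts and shares among them have no direction. The members' centre and its difference from the rows around stayed below 0 throughout, in a stretch chosen from this same comparison. The limits were a ranked 95% interval for medians, an exact binomial interval for the share and 1.5 times for counts. By the mean in place of the median, the centre of the members was -0.66. The median of the members lay between -0.65 and -0.55, the highest with the authors' deposited fold change, which is shrunken towards 0. Over the 164 members whose reads needed no model it was -0.63, an alternative chosen after seeing the data, as was the one without Nupr1 (difference -0.66). The difference from the rows on both sides lay between -0.86 and -0.55, the lowest by means in place of medians (-0.86); the mean of those rows was 0.21. The count of lower members was 143 with a 1.5-fold limit (22.8% of all genes) and 23 with a 4-fold limit (5.11% of all genes). The count of higher members was 6 with a 4-fold limit (7.47% of all genes). The share of members above 0 was 24.5% with no minimum, where 322 rows enter, against 18.7%. No paired analysis was possible because each group has 1 library, and for the same reason no library could be left out. Rows with few reads in both libraries limit single ratios.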
